A study of Mus musculus with 8 samples.

Results

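Transcripts of the primary cilium and of polycystic kidney disease were described in cultured primary tubular epithelial cells of mice labelled Aldh2 control or knockout. Members were the rows of the deposited table matched by gene symbol. They belong to the numbered families Ift, Bbs, Tctn, B9d and Nphp or to a list of named cyst, cilium and Hedgehog genes. The rule reads no expression values, but it was chosen with earlier results of these data known. The rule could match 72 genes, of which 70 were listed among 14145 genes in all, and Gli1 and Gli2 were not among the rows analysed here. The control group, titled WT, came from Aldh2Ctrl mice and the knockout group, titled KO, from Aldh2TEC-KO mice, with 4 libraries each. All cells were isolated from kidney, grown in serum-containing medium and left untreated, and every library was made from total RNA. The strain, age and sex of the mice, the means of deleting Aldh2 and whether each library came from its own animal are not stated in these sources, so p-values reflect library-to-library spread that could be technical. The genotype label of the 4 knockouts names a different ALDH gene in each, numbered upward from ALDH2, so groups were taken from the titles.

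The primary cilium is a single immotile antenna on the apical face of tubular cells, built on a basal body and gated by a transition zone. Intraflagellar transport trains, pulled outward by kinesin-2 and inward by dynein-2, carry its cargo, and the BBSome moves membrane proteins out of it. Polycystin-1 and polycystin-2 (Pkd1, Pkd2) and fibrocystin (Pkhd1) act at the cilium, and mutations in them, in the endoplasmic reticulum proteins that mature them or in transition zone genes cause cystic kidney disease or nephronophthisis. Hedgehog signalling runs through the same organelle, and RFX transcription factors drive many of its genes.

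Values are FPKM, reads or fragments per kilobase of gene and of library depth, at depths recovered as 17043000 to 17754000 reads in controls and 17887000 to 18752000 reads in knockouts. In each library the reads recovered for the listed genes summed to more than this depth, as 17788471 against 17266000 in control 1. The depths may thus not be library totals, and the cause was not tested. The fewest reads behind a member in any library were 31, for Bbs12 in knockout 3. Aldh2 read 23.69 to 31.08 FPKM in controls against 0.88 to 1.64 FPKM in knockouts, so every library matched its title. By Xist and Y-linked transcripts 6 libraries were male (every control, knockout 3 and knockout 4) and 2 female (knockout 1 and knockout 2), so a comparison within 1 sex exists for the male libraries only. All 7 epithelial markers were listed, with sums of 1302.1 to 2951.8 FPKM in control and 746.4 to 6135.2 FPKM in knockout libraries. Of the markers of nephron segments, 4 of 8 for the proximal tubule were listed (2 higher and 2 lower in the knockouts), 3 of 7 for the loop of Henle (all lower, median log2 difference -1.3), 2 of 6 for the distal tubule (both lower, -0.97) and 5 of 8 for principal cells (all lower, -1.04, with sums of 30.4 to 43.2 against 7.6 to 34.0 FPKM), and none (0) passed by limma. Not listed were the defining Aqp2, Slc12a3, Slc12a1 and Slc34a1. The part of these cell types in the member values was not tested. Of 12 macrophage markers all were listed, 11 with higher and 1 with lower knockout means (median log2 difference 1.29). Their sums were 86.1 to 1009.5 FPKM in controls against 217.2 to 1640.5 FPKM in knockouts. The 3 of 7 endothelial markers listed were all lower (-0.66), 2 with no overlap, with sums of 5.1 to 7.2 against 1.6 to 3.3 FPKM. None (0) of either kind passed by limma, and their part in the member values was not tested. In bulk RNA, fewer cells of a type and less RNA per cell cannot be told apart.

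No cilium or cyst gene passed the test over all 8 libraries. With limma on log2(FPKM + 1) and Benjamini-Hochberg adjustment over all genes, 0 of 70 members had an adjusted p below 0.05, against 0.0778% of all genes (0.0212% higher and 0.0566% lower), and limma-voom on the recovered reads also gave 0 members, against 0.0495% of all genes. At an unadjusted p below 0.05 there were 8 members (11.4%), against 19.2% of all genes. The mean log2 level, the scale of every count of higher or lower means given here, was higher in the knockouts for 25 members and lower for 45, which became 32 and 38 with median-ratio scaling and 43 and 27 with the trend on gene length and base composition removed. The median log2 difference was -0.08 over the members and -0.06 over all genes. For 5 members (7.14%) the knockout libraries lay wholly outside the controls, 4 above and 1 below, and the background share of all genes was 11.6%, with 4.76% above and 6.86% below. The authors' deposited table gives no member (0) an adjusted p below 0.05, against 0.375% of all genes, and marks 1 member up (B9d2) and 1 down (Ptch1), against 5.71% of all genes marked either way.

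In every knockout library Ift22, Ift27, Tctn2 and B9d2 lay above the controls. Ift22 (ENSMUSG00000007987, GRCm38 chromosome 5, 136908150 to 136915404) encodes a Rab-like GTPase of the intraflagellar transport B complex. It read 7.38, 7.32, 8.65 and 6.67 FPKM across control 1 to 4 against 11.08, 10.50, 13.45 and 16.70 FPKM across knockout 1 to 4, and the lowest knockout stood above the highest control. The knockout mean of Ift22 was 172.0% of the control mean (log2 difference 0.70, SE 0.18, limma adjusted p = 0.147). Ift27 (ENSMUSG00000016637, chromosome 15, 78159463 to 78174107), the Rab-like partner that links transport trains to the BBSome, read 4.37, 4.69, 5.41 and 4.05 FPKM in controls against 6.07, 6.34, 9.55 and 10.87 FPKM in knockouts. Knockout 3 and 4 were the highest for both GTPases. The knockout mean of Ift27 was 177.0% of the control mean (log2 difference 0.68, SE 0.21, limma adjusted p = 0.176).

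Tctn2 (ENSMUSG00000029386, chromosome 5, 124598749 to 124627738), a tectonic protein of the transition zone, read 3.72, 3.51, 4.16 and 3.95 FPKM in controls against 5.66, 6.70, 5.68 and 6.88 FPKM in knockouts. Its libraries were close together within each group, and the knockout mean was 162.0% of the control mean (log2 difference 0.58, SE 0.16, limma adjusted p = 0.150). B9d2 (ENSMUSG00000063439, chromosome 7, 25680780 to 25686558), a B9-domain protein of the same gate, read 6.57, 4.72, 6.08 and 5.59 FPKM in controls against 7.40, 9.38, 9.72 and 16.97 FPKM in knockouts, with knockout 4 far above the other libraries. The knockout mean of B9d2 was 189.0% of the control mean (log2 difference 0.76, SE 0.24, limma adjusted p = 0.177). Ptch1 (ENSMUSG00000021466, chromosome 13, 63508328 to 63573598), the Hedgehog receptor that is itself a transcriptional target of the pathway, was the only member below the controls in every knockout library. It read 3.96, 3.70, 3.12 and 3.79 FPKM in controls against 1.37, 2.58, 1.30 and 1.57 FPKM in knockouts. Knockout 2 was nearest the controls, and the knockout mean was 46.8% of the control mean (log2 difference -0.80, SE 0.19, limma adjusted p = 0.124).

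**Figure D1:**
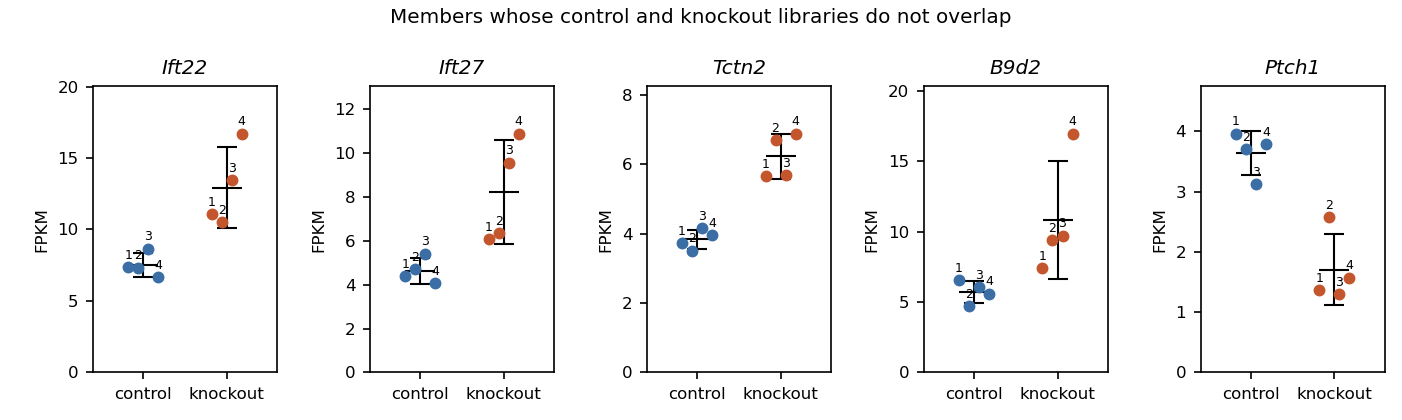
FPKM (y axis, from 0) of the 5 members whose groups do not overlap, by group; numbered points are libraries, and the bar with whiskers is the mean with its SD (n = 4). The knockout points of Ift22, Ift27, Tctn2 and B9d2 all sit above the controls, and those of Ptch1, at 1.30 to 2.58 FPKM, all sit below.

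All 5 kept their direction under each of 20 alternative settings, and their size and the separation of the groups did not hold throughout. With the trend on gene length and base composition removed, the log2 difference was 0.61 for Ift22, 0.45 for Ift27, 0.83 for Tctn2, 0.43 for B9d2 and -0.28 for Ptch1, and the groups of B9d2 and Ptch1 then overlapped. Without knockout 2, a fit in which 8.05% of all genes and 4 members (5.71%) passed, Ptch1 passed at a log2 difference of -0.94 (limma adjusted p = 0.0264) and Ift22 at 0.78 (limma adjusted p = 0.0424). No separate protein-coding gene overlaps the span of any of the 5 in GENCODE M21. Tctn2 itself is classed there as a processed transcript and not as protein coding. Its length and G+C content, used for the trend, come from that annotation. Ptch1 and Gli3 are also expressed by stromal cells, and of the 7 fibroblast and pericyte markers listed (Dcn, Lum and Pdgfra were not) 5 had lower knockout means (median log2 difference -1.4), 2 of them with no overlap. Those markers summed to 134.3 to 1181.5 FPKM in controls against 591.2 to 1770.8 FPKM in knockouts, and their part in the Ptch1 difference was not tested.

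The promoters of these 5 genes are shown because RFX factors act on cilium genes through the X-box, a pair of inverted half-sites close to the start. Each window runs from 250 bases before to 50 after the RefSeq start (GRCm38.p6) and is written 5′ to 3′ on the strand of the gene. Capitals mark the half-site GTTGCC on either strand. The windows are chr5:136907900-136908199 (plus strand) for Ift22, chr15:78174032-78174331 (minus strand) for Ift27, chr5:124598499-124598798 (plus strand) for Tctn2, chr7:25680530-25680829 (plus strand) for the upstream of 2 B9d2 starts and chr13:63565686-63565985 (minus strand) for Ptch1.
Ift22: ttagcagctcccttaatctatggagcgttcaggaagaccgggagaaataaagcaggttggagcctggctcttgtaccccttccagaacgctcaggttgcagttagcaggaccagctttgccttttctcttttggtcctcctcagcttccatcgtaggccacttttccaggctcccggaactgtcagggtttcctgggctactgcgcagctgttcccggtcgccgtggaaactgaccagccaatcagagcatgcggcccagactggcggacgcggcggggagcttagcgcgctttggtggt
Ift27: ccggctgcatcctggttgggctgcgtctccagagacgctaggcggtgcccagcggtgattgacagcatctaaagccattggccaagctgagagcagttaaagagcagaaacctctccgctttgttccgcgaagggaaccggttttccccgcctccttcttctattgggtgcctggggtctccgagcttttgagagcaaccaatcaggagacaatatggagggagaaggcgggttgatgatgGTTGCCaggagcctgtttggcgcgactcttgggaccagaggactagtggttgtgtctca
Tctn2: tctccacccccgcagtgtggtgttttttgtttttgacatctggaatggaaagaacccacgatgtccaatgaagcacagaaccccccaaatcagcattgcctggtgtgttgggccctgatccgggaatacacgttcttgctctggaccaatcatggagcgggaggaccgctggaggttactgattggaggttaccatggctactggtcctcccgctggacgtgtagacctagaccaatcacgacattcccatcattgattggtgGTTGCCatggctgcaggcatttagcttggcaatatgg
B9d2: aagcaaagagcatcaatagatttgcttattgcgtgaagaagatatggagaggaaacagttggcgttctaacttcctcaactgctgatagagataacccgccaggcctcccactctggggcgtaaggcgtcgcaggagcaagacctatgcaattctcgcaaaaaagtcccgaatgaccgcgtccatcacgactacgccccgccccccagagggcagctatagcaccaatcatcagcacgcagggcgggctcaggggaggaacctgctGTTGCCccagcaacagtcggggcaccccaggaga
Ptch1: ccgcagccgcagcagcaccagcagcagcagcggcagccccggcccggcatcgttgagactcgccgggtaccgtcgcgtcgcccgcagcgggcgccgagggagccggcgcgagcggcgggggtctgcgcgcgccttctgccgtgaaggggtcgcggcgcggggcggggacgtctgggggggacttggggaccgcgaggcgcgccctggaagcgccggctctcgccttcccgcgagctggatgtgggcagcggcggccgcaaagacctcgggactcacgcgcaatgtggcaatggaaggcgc

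The half-site begins 9 bases before the start in Ift27, 13 bases after it in Tctn2 and 16 bases after it in B9d2, and the windows of Ift22 and Ptch1 hold none (0). Of the 62 members with a RefSeq window, 26 (41.9%) held GTTGCC in at least 1 window, against 14.1% of the 27025 genes of the RefSeq table, each counted with all its windows. The full X-box consensus, with ambiguous bases allowed and on either strand, was in 13 members (21%) and in 6.03% of all genes, and its half-sites can overlap GTTGCC. B9d2, B9d1, Tctn1, Tctn3, Cep290, Iqcb1, Bbs1, Bbs7 and Ift57 were among the 13. Members with GTTGCC had a median log2 difference of -0.02 and the 36 without it one of -0.13. The GLI-binding sequence GACCACCCA, searched on either strand, was in no member window (0 of 62) and in 0.289% of all genes. At so low a share of all genes, finding none among 62 members was likely, and it does not show that GLI sites are lacking. A match describes the letters of these windows and shows no binding.

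Among the genes mutated in polycystic kidney disease and its relatives, the means of 7 of 8 were lower in the knockouts, and single libraries overlapped for every one. The median log2 difference of the 8 was -0.49 (6 of 8 lower under both scalings that follow) and stayed below 0 with median-ratio scaling (-0.42) and with the length and base composition trend removed (-0.13). Pkd1 (ENSMUSG00000032855, chromosome 17, 24549834 to 24596508), which encodes polycystin-1, read 8.72, 6.27, 5.01 and 4.85 FPKM across control 1 to 4 against 2.13, 6.96, 4.34 and 4.68 FPKM across knockout 1 to 4. Knockout 1 was the low library and knockout 2 lay inside the control range. Pkd1 shares its span with Tsc2 on the opposite strand, and the labels do not say whether counting used strand. Pkd2, the polycystin-2 channel, read 22.79, 20.01, 17.89 and 21.19 against 16.67, 22.73, 7.72 and 11.77 FPKM. Pkhd1 (ENSMUSG00000043760, chromosome 1, 20057779 to 20618064), the fibrocystin gene of recessive disease, read 26.13, 34.15, 24.70 and 33.95 against 16.26, 38.43, 10.12 and 18.53 FPKM. For both, knockout 3 was lowest and knockout 2 was among the highest libraries of either group.

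Glis3, a zinc-finger factor whose loss gives cystic kidneys, had its knockout libraries in the same order as Pkhd1, at 28.48, 27.78, 23.72 and 34.40 FPKM in controls against 14.04, 33.94, 8.60 and 16.01 FPKM in knockouts (log2 difference -0.78, SE 0.34, limma adjusted p = 0.256). In the fit without knockout 2, where 8.05% of all genes passed, Glis3 (limma adjusted p = 0.0338) and Pkhd1 (limma adjusted p = 0.0457) passed, at log2 differences of -1.12 and -0.97. Glis2, the nephronophthisis factor of the same family, was low in knockout 1 alone, at 24.50 FPKM, against 55.57 to 60.17 FPKM in the other knockouts and 48.97 to 62.77 FPKM in the controls.

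The endoplasmic reticulum proteins behind polycystic liver disease did not move as 1 group. Sec63, of the protein translocation channel, read 22.14, 27.39, 26.08 and 23.48 FPKM in controls against 26.26, 19.43, 9.59 and 12.13 FPKM in knockouts. Prkcsh, the beta subunit of glucosidase II, went the other way, at 45.50, 43.05, 47.68 and 38.47 against 45.10, 41.92, 75.83 and 75.81 FPKM. Ganab, the catalytic subunit of the same enzyme and the most abundant member per length, was at 76.57 to 96.39 against 64.70 to 109.93 FPKM (log2 difference -0.01, with FPKM means of 88.1 and 88.7). For Sec63 and Prkcsh, knockout 1 and 2 lay in or near the control range and knockout 3 and 4 outside it.

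**Figure D2:**
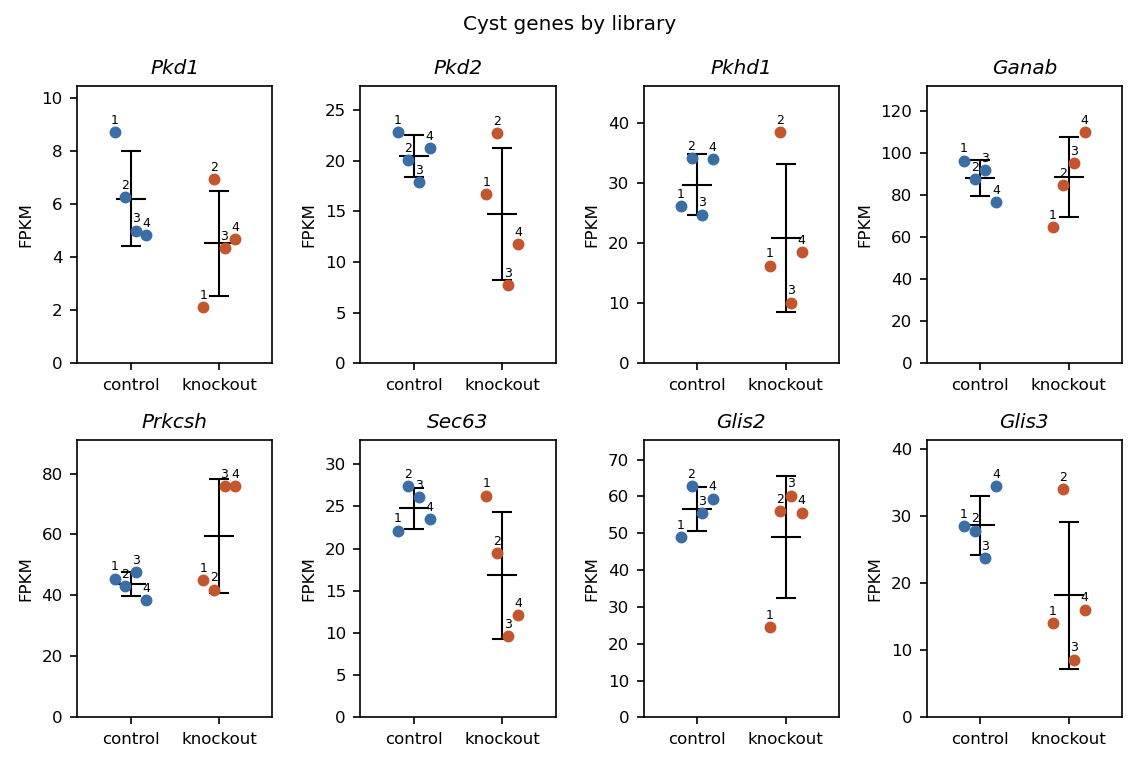
FPKM (y axis, from 0) of the 8 cyst genes by group; numbered points are libraries, and the bar with whiskers is the mean with its SD (n = 4). Knockout 3 and 4 hold the 2 lowest values of Pkd2 and Sec63 and the 2 highest of Prkcsh, and knockout 1 the lowest of Pkd1 and Glis2.

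Basal body and distal appendage genes had lower means in 5 of 5 cases (median -0.32), which was 4 of 5 with median-ratio scaling and turned to 1 of 5 (median 0.16) with the length and base composition trend removed. Cep290, a Joubert syndrome gene, encodes a gate and centriolar satellite protein. It read 1.06, 1.51, 0.87 and 1.87 FPKM in controls against 1.51, 1.52, 0.26 and 0.45 FPKM in knockouts. Cep83, which anchors the distal appendages, read 2.84, 3.18, 2.81 and 3.72 against 5.35, 3.07, 0.87 and 1.36 FPKM. For Cep83 knockout 1 was the highest library and knockout 3 the lowest. Ofd1, a centriolar gene on the X chromosome, was at 4.08 to 5.09 FPKM in controls against 4.24, 5.08, 1.62 and 3.02 FPKM in knockouts, and Iqcb1 at 1.64 to 2.09 FPKM and at 3.00, 2.26, 0.84 and 1.08 FPKM. Cep164, the distal appendage protein, differed little, at 5.54 to 6.29 against 4.54 to 7.13 FPKM.

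The 14 transition zone genes spread to both sides, 5 with higher and 9 with lower means (median -0.05, and 0.01 with median-ratio scaling, 7 to either side). Beside Tctn2 and B9d2, B9d1, a further B9-domain protein, was at 9.34, 10.94, 14.07 and 11.95 FPKM in controls against 11.18, 11.68, 19.24 and 23.00 FPKM in knockouts. Rpgrip1l, a scaffold of the gate, read 1.83, 2.13, 1.61 and 2.41 against 1.26, 2.28, 0.38 and 0.90 FPKM. A further 9, from Tmem67 at a control mean of 1.79 FPKM to Tmem231 at 10.4 FPKM, had log2 differences of -0.44 (Cc2d2a) to 0.19 (Tmem216). In the inversin compartment, the segment above the gate, Nek8, its kinase, read 2.79, 2.95, 2.67 and 2.37 FPKM in controls against 2.64, 3.29, 5.54 and 5.48 FPKM in knockouts. Its partners Invs and Anks6 were at control means of 2.48 and 3.83 FPKM and knockout means of 2.10 and 3.82 FPKM.

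**Figure D3:**
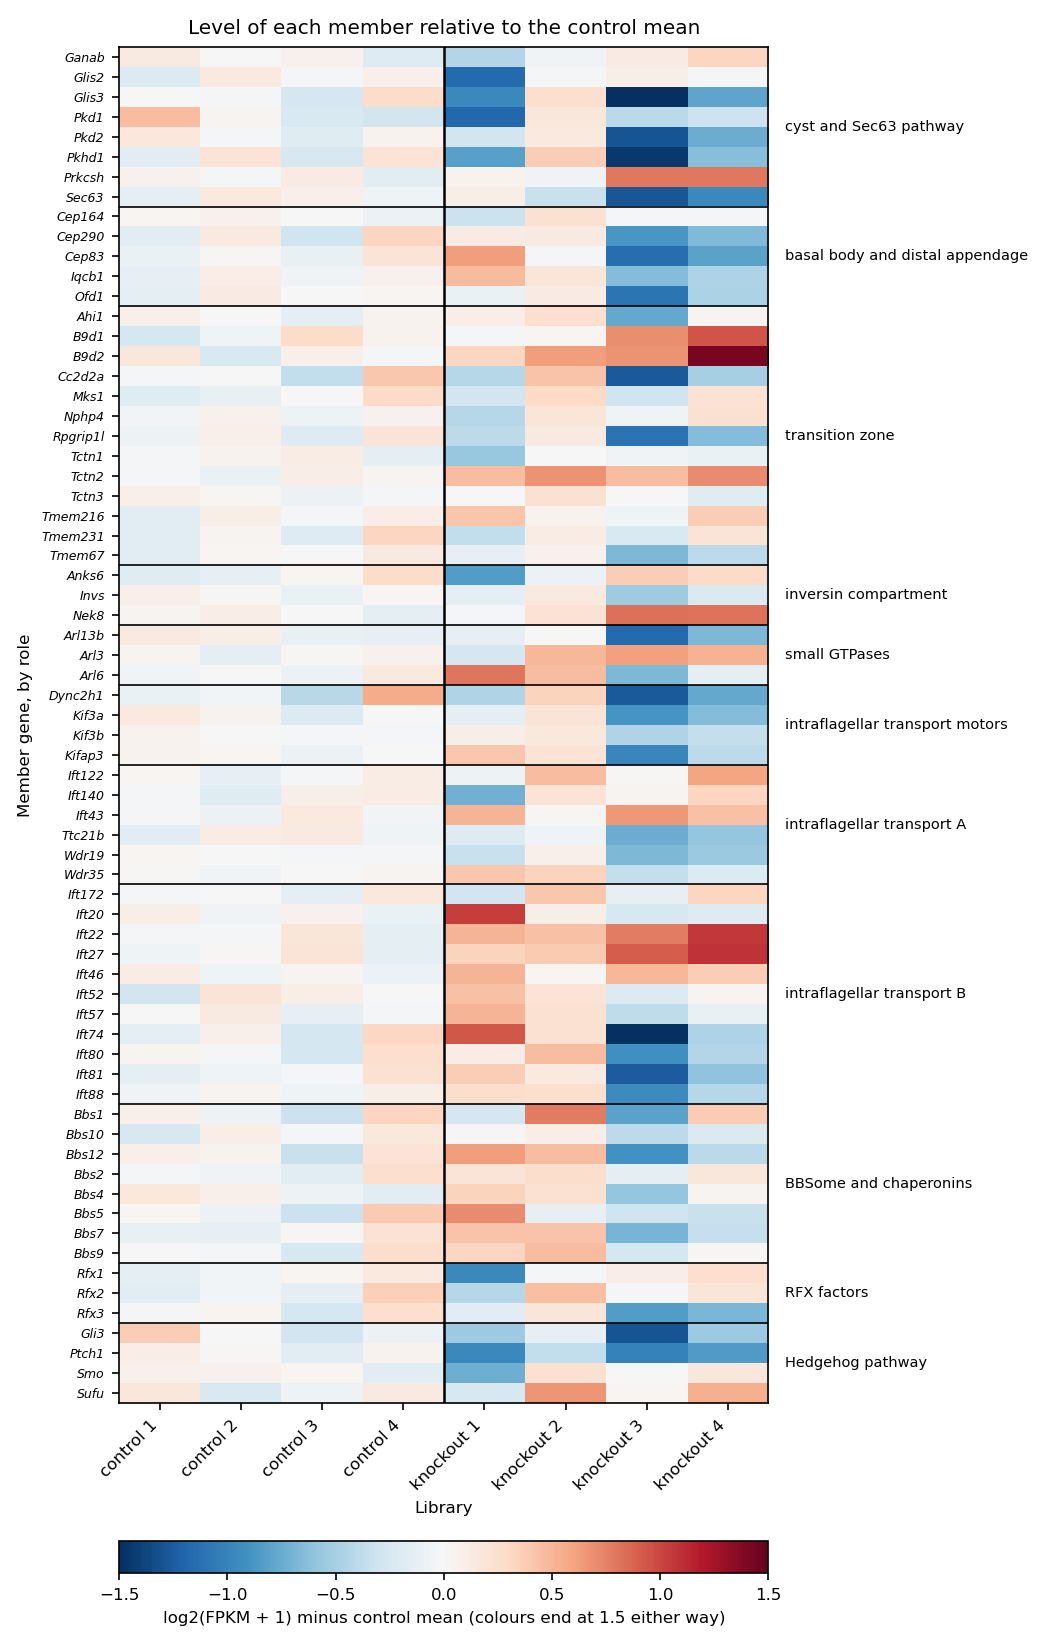
Level of 68 of the 70 members (rows, by role) in each library (columns) as log2(FPKM + 1) minus the control mean, in colour from blue (lower) to red (higher). Knockout 3 is blue for most rows, knockout 2 is mostly pale red, and Ift22, Ift27, Tctn2 and B9d2 are red in all 4 knockouts.

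All 4 transport motor genes had lower means (median -0.28), as with median-ratio scaling, and they stood 2 to either side with the length and base composition trend removed. Dync2h1, the heavy chain of the inward motor, read 1.96, 2.09, 1.38 and 3.68 FPKM in controls against 1.32, 3.01, 0.32 and 0.87 FPKM in knockouts. Kif3a, a kinesin-2 motor subunit, read 13.32, 12.33, 10.22 and 11.95 against 10.68, 13.72, 6.01 and 7.22 FPKM. Its partners Kif3b and Kifap3 had control means of 17.4 and 19.1 FPKM and knockout means of 15.9 and 17.8 FPKM. Knockout 3 and 4 were the lowest libraries for all 4.

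The intraflagellar transport A complex, which serves the return journey, was split 3 to 3 (median 0.00), with 4 higher under median-ratio scaling and 6 of 6 higher (median 0.15) with the length and base composition trend removed. Ift43, a small subunit, read 18.69, 17.80, 21.01 and 18.44 FPKM in controls against 27.40, 19.16, 30.19 and 26.09 FPKM in knockouts (log2 difference 0.40, SE 0.17, limma adjusted p = 0.250), and only knockout 2 reached into the control range. Ttc21b and Wdr19, large subunits of the same complex, were at 3.41 to 4.43 and 3.47 to 3.64 FPKM in the controls, and in the knockouts at 3.36, 3.77, 1.96 and 2.32 FPKM and at 2.59, 3.80, 1.84 and 2.09 FPKM. Ift122 had a control mean of 5.33 FPKM and a knockout mean of 6.66 FPKM, and Wdr35 and Ift140 had log2 differences of 0.04 and -0.04. Of the 11 intraflagellar transport B genes, which carry cargo outward, 7 had higher means (median 0.08, and 0.15 with median-ratio scaling), which was 9 of 11 (median 0.09) with the trend removed. Beside Ift22 and Ift27, Ift46 read 6.83, 5.95, 6.50 and 5.83 FPKM in controls against 9.39, 6.40, 9.30 and 8.38 FPKM in knockouts. Ift81, which binds tubulin, read 5.28, 5.71, 5.80 and 7.17 against 7.98, 6.73, 1.94 and 3.59 FPKM, so knockout 1 stood above and knockout 3 and 4 below the controls. Ift74, its partner, showed the same order, at 6.83 to 10.62 FPKM in controls against 16.81, 9.95, 2.29 and 5.81 FPKM in knockouts. Ift20, which also sits at the Golgi, was at 17.02 to 19.67 FPKM in controls against 38.60 FPKM in knockout 1, against 15.38 to 19.65 FPKM in the other knockouts. Ift52, Ift57, Ift80, Ift88 and Ift172 had log2 differences of -0.22 to 0.12.

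BBSome and chaperonin-like genes had log2 differences of -0.12 (Bbs10) to 0.13 (Bbs9) over 8 genes, 4 to either side. The higher ones were 5 with median-ratio scaling and 6 (median 0.13) with the length and base composition trend removed, and the median in the male libraries was -0.29. Their libraries still differed, as Bbs7 read 1.5, 1.5, 1.76 and 2.15 FPKM in controls against 2.64, 2.65, 0.67 and 1.13 FPKM in knockouts, and Bbs2 was at 4.22 to 6.03 against 4.38 to 6.06 FPKM. Among the small GTPases, Arl13b, which marks the ciliary membrane, read 5.57, 5.36, 4.53 and 4.48 FPKM in controls against 4.49, 4.94, 1.67 and 2.74 FPKM in knockouts. Arl3, which releases lipid-modified cargo inside the cilium, was at 40.96 to 47.08 FPKM in controls against 37.66, 63.65, 69.27 and 65.01 FPKM in knockouts, so 3 of 4 knockouts stood above every control. Arl6, which recruits the BBSome to membranes, was at 9.31 to 11.08 FPKM and at 18.04, 14.01, 5.87 and 8.87 FPKM.

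In the Hedgehog pathway 3 of 4 genes had lower means (median -0.35, and -0.29 with median-ratio scaling and -0.18 with the trend removed). Beside Ptch1, Gli3, the factor that is processed to a repressor, read 4.00, 2.89, 2.19 and 2.66 FPKM in controls against 1.67, 2.58, 0.58 and 1.67 FPKM in knockouts (log2 difference -0.62, SE 0.26, limma adjusted p = 0.244). Knockout 2 lay among the controls. Smo, the signal transducer, was the most abundant at 22.38 to 26.39 against 14.77 to 29.50 FPKM, and Sufu, the inhibitor of GLI factors, was at 5.10 to 7.09 against 5.08 to 10.34 FPKM. Of the RFX factors, Rfx3 was at 0.90 to 1.71 FPKM in controls against 0.28 to 1.58 FPKM in knockouts, Rfx1 was at 4.25 to 5.37 against 1.96 to 5.87 FPKM, and Rfx2 at 1.23 to 2.18 against 0.86 to 2.4 FPKM. The low library was knockout 3 for Rfx3 and knockout 1 for Rfx1 and Rfx2.

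Leaving out a knockout library changed how many members did not overlap. There were 8 of 70 without knockout 1, against 20.4% of all genes, and 18 of 70 without knockout 2, against 27.6%. In knockout 2, 38 of 70 members (54.3%) stood above all 4 controls, against 29.6% of all genes, and 2 (2.86%) stood below, against 21.1%. In knockout 3, 42 members (60%) stood below all controls, against 45.9% of all genes, and 11 (15.7%) above, against 31%. Knockout 4 had 36 below (51.4%, against 40.3% of all genes) and 21 above (30%, against 32.1%). Knockout 1 had 27 below (38.6%, against 38.5%) and 26 above (37.1%, against 31.3%). The median log2 level of the members relative to the control mean was -0.06, 0.21, -0.40 and -0.19 in knockout 1 to 4, and that of all genes -0.06, 0.04, -0.17 and -0.08. Among the controls, each set against the other 3, the members' medians were -0.02, 0.01, -0.09 and 0.09.

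In knockout 1, 3 and 4, and not in knockout 2, these levels ran with base composition and length, and control 3 also showed such a trend. Across the 70 members, Spearman's rho between the level relative to the controls and the G+C content of the longest transcript was -0.45, 0.05, 0.68 and 0.65 in knockout 1 to 4, and across all genes with an annotated length it was -0.27, 0.05, 0.62 and 0.59. With gene length rho was -0.55, -0.04, -0.37 and -0.39 over the members and -0.27, -0.07, -0.37 and -0.34 over all genes. Among controls, each set against the other 3, members' rho with G+C was 0.13, -0.29, 0.38 and -0.26 in control 1 to 4. With length it was 0.08, 0.05, -0.30 and 0.12 in the same order. The points of 1 panel share a library, and genes are not independent replicates, so these are descriptions. Median exon-union length was 5939 bp for the members against 3956 bp for all genes, and median G+C content 48.6% against 49.7%. The members lowest in knockout 3, Glis3, Ift74 and Pkhd1, had a G+C content of 50.3%, 41.6% and 47.4%, and those lowest in knockout 1, Pkd1, Glis2 and Glis3, one of 56.8%, 57.8% and 50.3%. With both trends removed per library, the median over the members was 0.09, 0.16, -0.03 and 0.05 in knockout 1 to 4, and 10 members (14.3%) did not overlap between groups, all above the controls, against 12.1% of all genes in either direction and 5.61% above. They were Bbs4, Ift22, Ift27, Ift80, Ift122, Invs, Iqcb1, Nek8, Tctn2 and Wdr35. Whether base composition or length lies behind the differences was not tested.

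**Figure D4:**
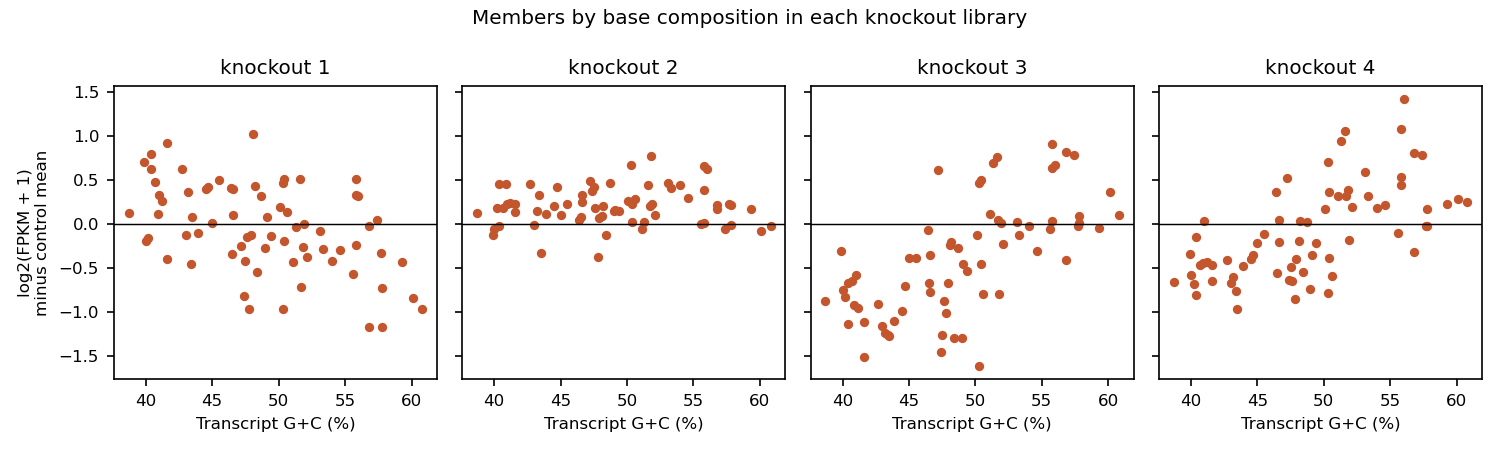
Level of each member relative to the control mean, as log2(FPKM + 1), against the G+C content of its longest transcript in percent, with 1 panel per knockout library and 1 point per gene (n = 70). The points rise with G+C in knockout 3 and 4 (rho 0.68 and 0.65), fall with it in knockout 1 (rho -0.45) and are level in knockout 2 (rho 0.05).

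Within the 6 male libraries, the only sex with both groups, many members passed. With knockout 3 and 4 against the 4 controls, limma called 38 of 70 members (54.3%) at an adjusted p below 0.05, against 44.4% of all genes. Of the 70 members 10 were higher, a smaller share than the 17.6% of all genes. The 28 of 70 that were lower were a larger share than the 26.7% of all genes. All 4 motors fell (Dync2h1 by 1.01, Kif3a by 0.77, Kifap3 by 0.69 and Kif3b by 0.41 on the log2 scale), as did 4 of 5 basal body genes and 4 of 8 cyst genes, namely Glis3 (-1.20, limma adjusted p = 0.00948), Sec63 (-1.12, 0.00328), Pkhd1 (-1.05, 0.0163) and Pkd2 (-1.02, 0.00555). Ptch1 (-0.93, limma adjusted p = 0.00394) and Gli3 (-0.92, 0.0308) fell too. B9d2 (1.05), Ift27 (1.00), Ift22 (0.92), B9d1 (0.82), Nek8 (0.82), Prkcsh (0.79), Tctn2 (0.59), Arl3 (0.57), Ift43 (0.54) and Ift46 (0.44) rose. No female control exists, so sex and genotype cannot be told apart for knockout 1 and 2, and a difference between the male and female knockouts was not tested.

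Most of the lower calls in the male libraries were lost with the length and base composition trend removed. There were then 15 calls (21.4%, against 22.9% of all genes). Of the 70 members 11 were higher, a larger share than the 12.2% of all genes. The 4 of 70 that were lower were a smaller share than the 10.7% of all genes. Of the 28 lower calls 3 were shared, Glis3 and Kif3a among them, while Ift80 turned from lower to higher. Of the 10 higher calls 7 were shared (Arl3, Ift22, Ift27, Ift46, Nek8, Prkcsh and Tctn2). Glis3 then stood at -0.79 (limma adjusted p = 0.0398) and Tctn2 at 0.97 (limma adjusted p = 0.00832), while Ptch1 stood at -0.07 (limma adjusted p = 0.653) and Ift43 at -0.07 (limma adjusted p = 0.604). The trends were fitted on all genes of each library, so a difference between the groups that runs with length or base composition is removed with them.

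**Figure D5:**
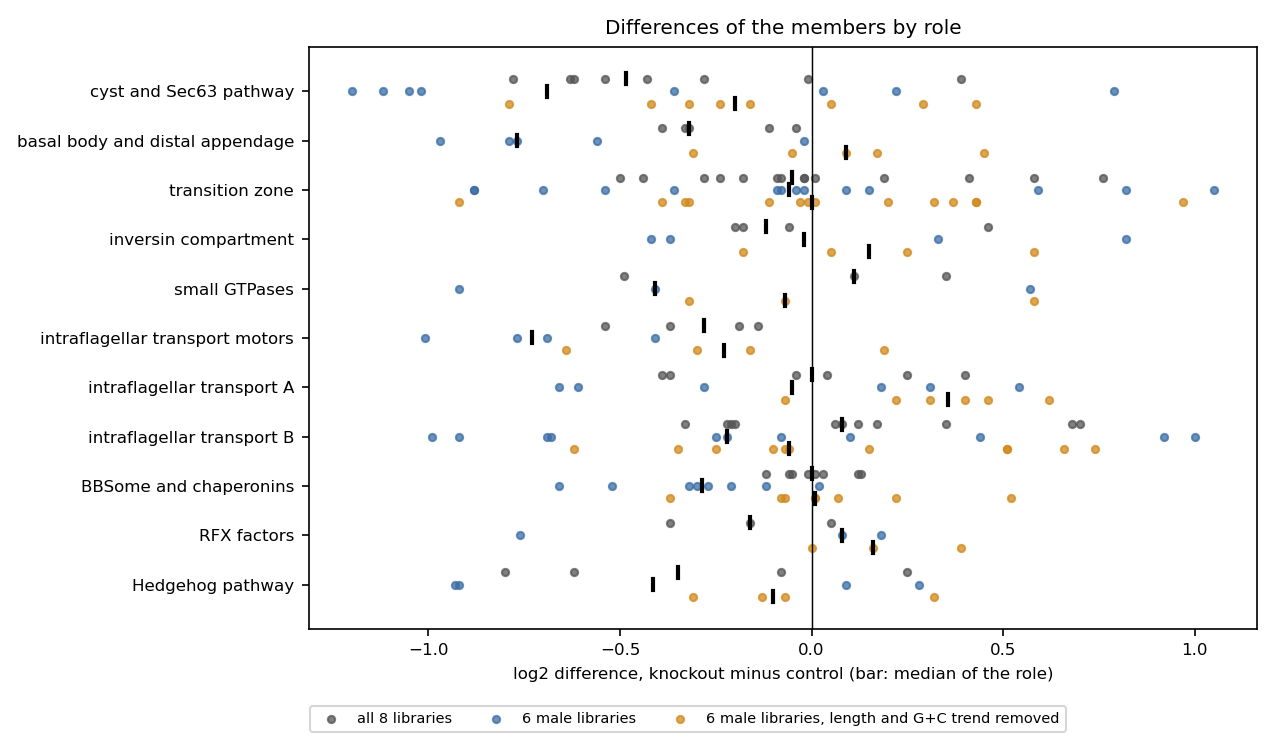
Log2 difference, knockout minus control, of each member (points) by role, with the median of the role as a bar, over all 8 libraries, over the 6 male libraries, and over the male libraries with the length and G+C trend removed. The medians of the motors and the basal body genes lie at -0.73 and -0.77 in the male libraries and at -0.23 and 0.09 with the trend removed.

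A second list held other cilium genes. Of its 60 genes of ciliary transport, gating, centrioles and signalling, 55 were listed, 19 with higher and 36 with lower means (median -0.08), and none (0) passed over all 8 libraries by limma, with 9 at an unadjusted p below 0.05, against 19.2% of all genes. The split became 31 higher and 24 lower (median 0.01) with the length and base composition trend removed. Their groups did not overlap in 8 of the 55 cases, 6 above and 2 below the controls, against 4.76% and 6.86% of all genes. Pde6d, the carrier of lipid-modified cargo released by Arl3, was at 10.53 to 11.62 FPKM in controls against 13.06 to 16.85 FPKM in knockouts (log2 difference 0.43, SE 0.15, limma adjusted p = 0.195). Rab8a, which directs vesicles to the cilium, was at 14.14 to 16.95 against 18.65 to 24.28 FPKM (log2 difference 0.43, limma adjusted p = 0.205). Dnajb11, a chaperone needed for polycystin-1 maturation and a cyst gene itself, was at 20.92 to 28.81 against 31.60 to 37.01 FPKM (log2 difference 0.41, limma adjusted p = 0.216). Adcy6, an adenylyl cyclase of tubular cells, lay below at 18.95 to 22.76 against 8.23 to 16.87 FPKM (log2 difference -0.58, limma adjusted p = 0.220), and Lca5, a ciliary protein of photoreceptors, at 1.44 to 2.22 against 0.57 to 1.51 FPKM with an overlap. With the length and base composition trend removed, 5 of the 55 lay wholly above and 3 wholly below the controls, against 5.61% and 6.5% of all genes. The groups of Pde6d (log2 difference 0.21) and Dnajb11 (0.33) then overlapped, and those of Rab8a (0.49) and Adcy6 (-0.51) did not. In the male libraries 6 of the 55 rose and 20 fell, against 17.6% and 26.7% of all genes, and with the trend removed 11 passed, against 22.9%.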

How the data were processed

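The authors deposited 14145 genes with 1 FPKM per library, which is a scaling to gene length and library depth; the table's name calls them counts, and the unit was read from the values. Per the submitters' processing notes FastQC, STAR 2.4.1d, DESeq2 and GRCm38 were used; no source names the counter, annotation or row filter. Per gene the deposited table also has the authors' log2 fold change and p-value, raw and adjusted, used only where named. No column was left without a sample (0). Multiplied by exon-union lengths of GENCODE M21 (14129 genes), the FPKM of a library fell on multiples of 1 step (95.0% to 95.5% of genes with few reads within 0.05 read, against 8.5% to 11.3% with a wrong step), which gave depths. The test was limma 3.58.1 (R 4.3.3) with its trend option on log2(FPKM + 1) of all genes and 8 libraries with group as the only term, adjusted by Benjamini-Hochberg over all genes at 0.05. This scale understates changes of low genes. The fit was tested on simulated data. Members and lists were chosen with earlier results of these data known. Named were the 8 cyst genes, up to 4 members of each other role by lowest p, members whose groups do not overlap, 5 wider cilium genes by lowest p and Aldh2; some items under this rule are not reported here, and other genes given were chosen after their values were seen. Trends on length and G+C were removed by lowess (span 0.3). Tables and plots used Python 3.11.15, pandas 2.3.3, numpy 2.4.6 and matplotlib 3.10.9. Sequences are from RefSeq (GRCm38.p6), where 62 of 70 members matched by symbol.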

Additional observations from a re-analysis of the deposited data

Results flagged for a closer look

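Over 154 groups of 4 libraries (70 members and 7 further named genes in either group), 2 were flagged. In each, the distance of a library to its nearest neighbour took up nearly the whole range of the group. Chance gives about 1 in 20, a larger share than was found. The flagged library was knockout 1 in both. Glis2 was at 24.50 FPKM there and at 55.57 to 60.17 FPKM in the other knockouts. Bbs5, a BBSome subunit, was at 6.44 FPKM there and at 2.61 to 3.20 FPKM in the others. The G+C content of the longest transcript is 57.8% for Glis2 and 39.9% for Bbs5.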

How the results depend on the processing

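Of the named genes with an unadjusted limma p below 0.05 or no overlap of groups, Ift43 alone changed sign, to -0.07. This was in the male libraries with the length and G+C trend removed, an alternative added after seeing the data. Other named genes also crossed 0 over the 20 settings, among them Cep290 (-0.83 to 0.45), Rpgrip1l (-0.99 to 0.37) and Arl6 (-0.41 to 0.63). The count of members past the threshold, 0 over all libraries, was 38 in the male libraries, 33 with sex as a term, 15 in the male libraries with the trend removed and 0 to 4 on leaving out single libraries; for the wider cilium genes these were 26, 16, 11 and 0 to 2. All genes past the threshold, 11 over all libraries, were 6275, 4838, 3233 and 1 to 1139 in the same order, 2 with the trend removed over all libraries, 7 by limma-voom and 3 with a pseudocount of 0.1. The median over the members, -0.08, was -0.29 both in the male libraries and with sex as a term, and -0.20 to 0.00 on leaving out single libraries. It was above 0 with the trend removed over all libraries (0.07) and without knockout 3 and 4 (0.08). Without those 2 libraries 45 members had higher and 25 lower means, against 25 and 45 over all libraries. With no female control, the sex term takes up knockout 1 and 2, so the male fit and the sex fit give the same differences by design. The 5 members without overlap became 10 with the trend removed and 5 to 18 on leaving out single libraries. The highest counts were without knockout 2 (18 of 70, against 27.6% of all genes) and knockout 1 (8 of 70, against 20.4%). Aldh2 ranged from -3.69 to -3.53 without single libraries and passed each time. With a replicate block 0 members and 1 gene in all passed. Same-numbered libraries correlated at 0.04, -0.20, 0.56 and -0.06 in their deviations, and not every library correlated best with its own number. These values show no clear pairing by number and cannot exclude one. Pseudocounts of 0.1 and 0.5, keeping genes that reach 1 FPKM in 4 or more libraries (69 members), median-ratio scaling, no variance trend and leaving out knockout 3 and 4 gave 0 members. The cause was not tested for any of these shifts. Depth limits the lowest members most, Bbs12 resting on 31 reads in knockout 3.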

Other observations

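Genes outside the rule for named genes follow, chosen after their values were seen. Foxj1, the master regulator of motile cilia, was at 48.04, 42.56, 47.45 and 12 FPKM across control 1 to 4 against 8.72, 18.60, 47.44 and 48.20 FPKM across knockout 1 to 4, so both groups held libraries above 47 FPKM and libraries at or below 18.60 FPKM (log2 difference -0.39, limma adjusted p = 0.718). Of 14 motile cilium genes 4 were listed, Foxj1, Rsph1, Ccdc39 and Spag6, the last 3 at no more than 1.65 FPKM, and axonemal dyneins such as Dnah5 were not among the rows.

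All 12 genes of a list on cilium disassembly and the cell cycle had lower knockout means (median log2 difference -0.57), which was 11 of 12 (median -0.39, Kif24 higher) with the length and G+C trend removed. None (0) passed by limma, against 0.0778% of all genes, and 3 had an unadjusted p below 0.05, against 19.2% of all genes. Nedd9, the scaffold that activates Aurora A at the basal body, was at 16.76, 16.33, 12.90 and 10.50 FPKM in controls against 7.32, 7.90, 3.90 and 5.02 FPKM in knockouts (log2 difference -1.12, SE 0.24, limma adjusted p = 0.103), with no overlap. Aurka itself was at 3.29 to 4.03 against 2.42 to 3.80 FPKM. Mki67, a proliferation marker, was at 2.55 to 5.27 FPKM in controls against 1.31, 6.01, 0.30 and 0.80 FPKM in knockouts, so knockout 2 was the highest library and knockout 3 the lowest. Knockout 2 and 3 also held the highest and the lowest members' medians of the knockouts, 0.21 and -0.40, and whether the share of dividing cells bears on the cilium genes was not tested.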
